A study of Mus musculus with 49 samples.

Results

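Genes for ribosome biogenesis and the nucleolus were examined in single late 2-cell mouse embryos treated to deplete TBP or FOXJ3. The members were the protein-coding genes named Utp, Nop, Nol, Rrp, Exosc, Imp3 or Imp4 together with Fbl, Ncl, Npm1, Dkc1, Bop1, Pes1, Wdr12, Nip7 and Bysl, 57 of the 54838 gene rows. They were taken by name and not by any measured value, and they lie on 19 chromosomes. Of these, 54 encode factors of ribosome assembly, RNA processing in the nucleolus or its major proteins. Nol3, Nol4 and Nol4l carry a nucleolar name but are not ribosome assembly factors, and they are given apart.

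All embryos came from zygotes of F1 (C57BL/6J × CBA/H) females mated with F1 males. They were taken singly at the late 2-cell stage, 48 h post-hCG, after Trim-Away. In this method an injected antibody directs the ubiquitin ligase Trim21 to its target protein. TBP LOF embryos received the anti-TBP antibody 3G3 and their CONTROL embryos mouse IgG, while FOXJ3 LOF embryos received an anti-FOXJ3 antibody and their CONTROL embryos rabbit IgG, and all 4 groups received Trim21-mCherry mRNA 4 h later. There were 9 embryos with TBP LOF and 10 of their CONTROL, and 17 with FOXJ3 LOF and 13 of theirs in 2 processing batches. One TBP CONTROL and 1 FOXJ3 LOF embryo had too few reads and were left out, so that 47 of 49 were analysed. TBP is the general transcription factor that nucleates initiation complexes of the RNA polymerases, and FOXJ3 is a forkhead factor. Trim-Away removes protein, so the mRNA levels of Tbp and Foxj3 do not measure the loss.

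Ribosomes are built in the nucleolus. RNA polymerase I makes a long precursor rRNA, on which the small subunit processome assembles as it is transcribed, and small nucleolar RNPs guide methylation and pseudouridylation of its bases. Separate sets of factors then mature the small and the large subunit, and the RNA exosome trims and degrades the spacers. In the mouse zygote nucleolus precursor bodies are largely inert, and rRNA synthesis resumes with zygotic genome activation, of which the late 2-cell stage is the major wave.

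The reads counted were those of transcript 5' ends, so the sequence around the transcription start is the part of each gene closest to the measurement. RefSeq promoter windows (GRCm38.p6, 250 bases before to 50 after an annotated start) were found for 44 of the 57 genes, 52 windows in all. The E-box CACGTG, the sequence bound by MYC, was in 10 of these windows (19.2%) and in 7.15% of the 32851 windows of all genes. The letters CCGCCAT, the core of the YY1 site, read on either strand like the other motifs, were in 7 windows (13.5%, against 4.05% of all). TATAAA was in 5 windows (9.62%, against 13.6%), and with its first base between -40 and -20 on the strand of the gene, where a TATA box lies, in 0 of 52 (1.99% of all windows). The median G+C content was 59.0% in the members' windows and 52.7% in all. A match is a description of the sequence and not a measured binding site. A stretch of 120 bases, 90 before to 30 after the start, is shown for the 7 genes with CACGTG in that stretch and, for comparison, for Ncl and Nop10, which were among the genes with the smallest adjusted p, and Exosc8, which did not pass the threshold, with motif matches in capitals.
Exosc5, chr7:25659063-25659182, forward strand: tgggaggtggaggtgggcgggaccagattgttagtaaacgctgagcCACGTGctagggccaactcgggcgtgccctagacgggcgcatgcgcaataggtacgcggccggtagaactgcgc
Nol11, chr11:107189352-107189471, reverse strand: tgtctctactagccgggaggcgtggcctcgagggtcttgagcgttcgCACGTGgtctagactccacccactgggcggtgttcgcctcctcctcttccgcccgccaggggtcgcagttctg
Nop2, chr6:125131793-125131912, forward strand: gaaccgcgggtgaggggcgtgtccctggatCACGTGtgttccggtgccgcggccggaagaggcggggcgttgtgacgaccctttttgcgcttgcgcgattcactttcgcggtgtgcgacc
Pes1, chr11:3963885-3964004, forward strand: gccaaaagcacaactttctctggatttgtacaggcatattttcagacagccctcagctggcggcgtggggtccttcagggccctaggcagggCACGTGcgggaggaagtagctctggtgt
Utp14b, chr1:78658350-78658469, forward strand: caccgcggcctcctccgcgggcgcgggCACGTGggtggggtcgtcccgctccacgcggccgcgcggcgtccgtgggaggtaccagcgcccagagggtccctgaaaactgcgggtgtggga
Utp18, chr11:93885737-93885856, reverse strand: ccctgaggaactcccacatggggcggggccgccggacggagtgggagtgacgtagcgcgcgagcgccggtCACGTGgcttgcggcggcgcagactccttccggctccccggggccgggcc
Utp4, chr8:106893550-106893669, forward strand: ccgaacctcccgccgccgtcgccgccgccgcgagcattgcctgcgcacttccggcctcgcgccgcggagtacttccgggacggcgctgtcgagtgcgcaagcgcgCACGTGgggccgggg
Ncl, chr1:86359426-86359545, reverse strand: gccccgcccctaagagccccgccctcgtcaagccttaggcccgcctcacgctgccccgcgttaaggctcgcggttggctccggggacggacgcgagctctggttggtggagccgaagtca
Nop10, chr2:112261836-112261955, forward strand: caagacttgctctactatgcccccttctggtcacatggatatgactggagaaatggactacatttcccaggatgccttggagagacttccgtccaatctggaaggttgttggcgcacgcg
Exosc8, chr3:54735335-54735454, reverse strand: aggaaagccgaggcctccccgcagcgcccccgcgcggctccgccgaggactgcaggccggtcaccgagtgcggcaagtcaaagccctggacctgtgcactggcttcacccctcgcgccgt
The E-box lay before the start in Exosc5, Nol11, Nop2, Utp14b and Utp18 and just after it in Pes1 and Utp4. The stretch given for Utp14b lies within the gene Acsl3 on the same strand, so reads of the pair may not be fully separable. In all, 34 members overlap another gene row on either strand, so this limit may hold for other members too. The 10 genes with CACGTG anywhere in the window had a median log2 fold change of -1.75 upon TBP LOF, and the 34 without it -1.75. The medians were -1.28 for the 5 genes with TATAAA and -1.79 for the 39 without, and -2.0 for the 6 with CCGCCAT and -1.71 for the 38 without. These differences were not tested.

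The embryos had been sequenced to between 1103569 and 5434808 counted reads, and 52 of the 57 genes had a read in every embryo that passed. Levels are given as CPM, read counts scaled to a common total over genes and transposable element (TE) families. In TBP CONTROL embryos the median over the 54 assembly genes was 66.8 CPM, from 9.13 for Exosc6 to 1131 for Npm1. The corresponding medians were 78.5 CPM in FOXJ3 CONTROL, 78.3 CPM in FOXJ3 LOF and 24.2 CPM in TBP LOF embryos. Per kilobase of the longest annotated transcript, the order in TBP CONTROL embryos was led by Npm1 (693 CPM per kb), Imp3 (309 CPM per kb) and Nop10 (271 CPM per kb), and Wdr12 was the lowest (3.25 CPM per kb). Npm1 was also the highest and Wdr12 the lowest per kilobase in the other 3 groups. Reads came from 5' ends only, so a level per kilobase understates long transcripts, and the order is a description and not a comparison of transcript numbers between genes. The embryo-to-embryo coefficient of variation had a median over the genes of 29.3% in TBP CONTROL, 55.2% in TBP LOF, 45.4% in FOXJ3 CONTROL and 29.2% in FOXJ3 LOF embryos.

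The first comparison asked whether these genes depend on TBP at the late 2-cell stage. Read counts were normalised to ERCC spike-in RNA, which gives amounts per embryo, and log2 fold changes are LOF over CONTROL, with standard errors, from edgeR's quasi-likelihood test adjusted over 19357 genes and TE families (threshold 0.05, n = 9 embryos per group). Of the 56 members tested, 53 were lower and 0 higher upon TBP LOF, while 29.7% of all features were lower. Among the 8125 features kept by a stricter filter on low counts (edgeR's filterByExpr), 52.5% were lower, and the members were again at 53. The median log2 fold change was -1.79 over the 56 genes and -0.72 over all features. In 28 members every LOF embryo lay below every CONTROL embryo, which held for 6.69% of all features. A lower amount per embryo can come, for example, from fewer molecules per cell or from less cell material. ERCC scaling alone does not separate these. Values relative to other transcripts are given next, and the part of either was not tested.

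The scaling matters for the size of these differences. Scaled by TMM, which centres the bulk of genes, the log2 fold changes of all features moved up by 0.82 at the median, 40 members were lower (12.7% of all features) and 1 was higher, Nol4l (12.8% of all features were higher). The median over the members was then -0.97, against 0.11 over all features. Of the 53 lower members, 13 did not pass with TMM scaling, and their TMM values are given with them.

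**Figure D1:**
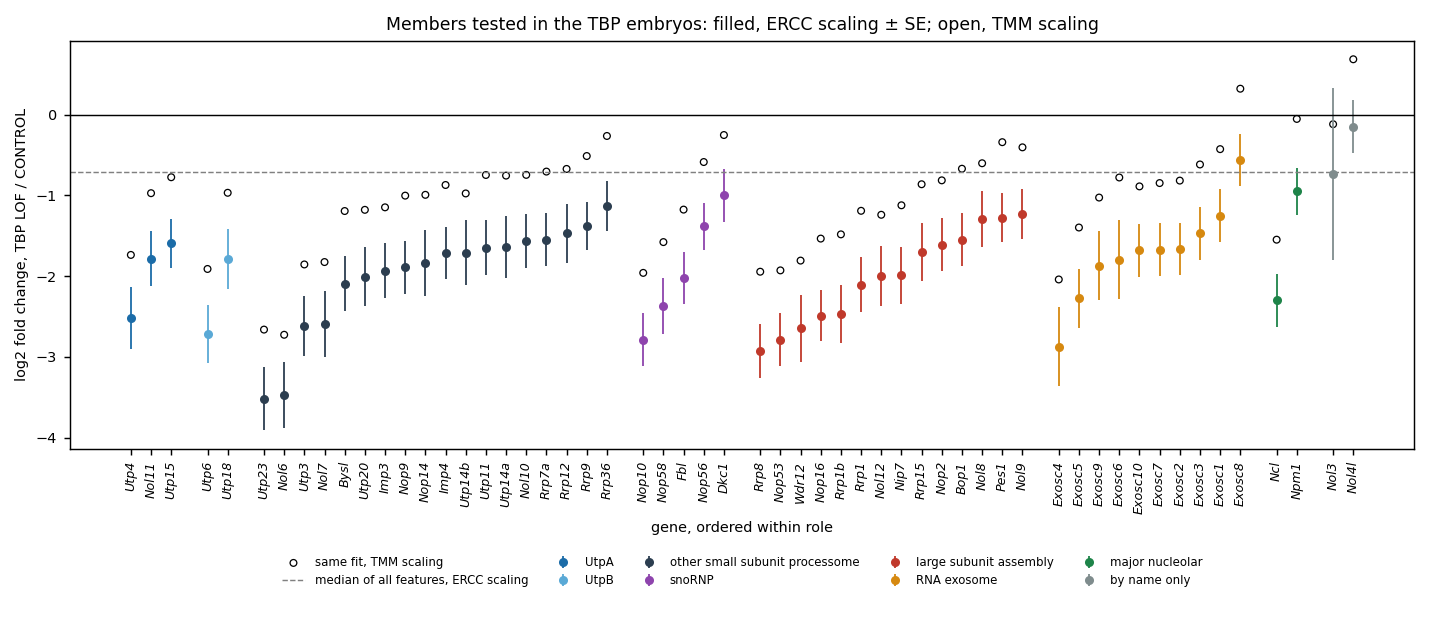
Log2 fold change of each of the 56 tested genes between TBP LOF and CONTROL embryos (y axis), ordered by role and size (x axis). Filled points with bars are ERCC-scaled estimates ± SE and open circles the TMM-scaled estimates. All filled points lie below 0, from -3.52 (Utp23) to -0.15 (Nol4l), and with TMM scaling Exosc8 and Nol4l lie above 0.

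The small subunit processome forms on the nascent precursor rRNA and cleaves it on the path to 18S rRNA. All 23 of its tested members were lower. In the UtpA subcomplex, the first to bind, Utp4 had a median of 165 (93.9 to 212) normalised counts in CONTROL embryos and a median of 31.3 (2.17 to 54.3) upon TBP LOF, with no overlap. Its log2 fold change was -2.52 ± 0.39 (adjusted p = 8.35e-07). Nol11, a UtpA subunit of animals, fell to 29.1% of CONTROL (-1.78 ± 0.34, adjusted p = 2.64e-05), and Utp15 to 33.1% (-1.60 ± 0.30, adjusted p = 3.09e-05), also without overlap. In UtpB, which holds the U3 snoRNP in place, Utp6 went from a median of 92.0 (68.2 to 163) to a median of 15.3 (3.38 to 27.8) normalised counts (-2.72 ± 0.36, adjusted p = 3.15e-08). The ranges of Utp18 overlapped in 1 LOF embryo, with -1.79 ± 0.37 (adjusted p = 1.29e-04).

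The member with the largest fall was Utp23 (ENSMUSG00000022313.10, chr15:51877429-51884614 on the forward strand of GRCm38), which helps release the snR30 snoRNA from the early particle. It had a median of 286 (206 to 452) normalised counts in CONTROL and a median of 29.9 (3.62 to 53.3) in TBP LOF embryos. Every LOF embryo was below every CONTROL embryo, and the level fell to 8.73% of CONTROL (-3.52 ± 0.39, adjusted p = 1.02e-09). Nol6, a large scaffold of the processome, had a median of 131 (32.5 to 195) normalised counts in CONTROL and a median of 9.80 (1.69 to 20.6) upon LOF. It reached 8.999% of CONTROL (-3.47 ± 0.41, adjusted p = 3.71e-09) and was the most reduced member when scaled by TMM (-2.73). Bysl, which acts late in small subunit maturation, fell to 23.4% (-2.09 ± 0.34, adjusted p = 2.08e-06). At the other end, Rrp36, a factor of early cleavage, had a median of 124 (77.7 to 165) in CONTROL and a median of 53.1 (22.0 to 116) in LOF embryos, and the ranges overlapped. Its change of -1.13 ± 0.31 passed the threshold (adjusted p = 0.00305) but did not with TMM scaling (-0.27, adjusted p = 0.438).

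Utp14a and Utp14b are paralogs, and the Utp14b gene is a retrogene inside Acsl3. Utp14a fell by 1.64 on the log2 scale, from a median of 86.8 (46.5 to 149) to a median of 23.8 (1.15 to 89.3) normalised counts (adjusted p = 6.29e-04), and with TMM scaling the value was -0.76 (adjusted p = 0.12). Utp14b changed by a similar amount (-1.71 ± 0.41, adjusted p = 7.23e-04), from a median of 61.4 (24.4 to 108) to a median of 14.7 (1.69 to 49.5). The handling of reads shared by the copies was not stated, so the values of both are uncertain. The other processome factors were Utp3, Nol7, Utp20, Imp3, Nop9, Nop14, Imp4, Utp11, Nol10, Rrp7a, Rrp12 and Rrp9, in order of their change, which ran from -2.62 to -1.38, and in 6 of these 12 no LOF embryo reached the CONTROL range. With TMM scaling Utp11 (-0.75, adjusted p = 0.0531), Rrp9 (-0.51, adjusted p = 0.0585) and Rrp12 (-0.67, adjusted p = 0.094) did not pass, and 13 of the 18 factors outside UtpA and UtpB were lower.

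snoRNP proteins carry out the base modifications. Fibrillarin (Fbl, ENSMUSG00000046865.7, chr7:28169710-28179269 on the forward strand of GRCm38) is the methyltransferase of box C/D snoRNPs. It had a median of 165 (119.7 to 262) normalised counts in CONTROL and a median of 46.5 (15.4 to 90.5) in LOF embryos, without overlap (-2.03 ± 0.32, adjusted p = 1.60e-06). Nop58, a core protein of the same particles, fell to 19.3% of CONTROL, from a median of 771 (524 to 926) to a median of 119.8 (43.6 to 340.4) (-2.37 ± 0.34, adjusted p = 2.17e-07). Its partner Nop56 changed by -1.39 ± 0.29 (adjusted p = 1.60e-04). Nop10 and Dkc1 belong to the box H/ACA particles, which make pseudouridine. Nop10 had a median of 628 (466.6 to 1217) normalised counts in CONTROL and a median of 77.0 (34.4 to 216) in LOF embryos (-2.79 ± 0.33, adjusted p = 3.54e-09). Dkc1, the pseudouridine synthase itself, had a median of 298 (256 to 545) in CONTROL and a median of 141 (41.3 to 369) in LOF embryos. Its ranges overlapped in 2 LOF embryos, the change was -1.0 ± 0.33 (adjusted p = 0.0138), and with TMM scaling it did not pass the threshold (-0.25, adjusted p = 0.508). The difference between Nop10 and Dkc1 was not tested. Ncl, Nop56, Nop58, Nop53 and Dkc1 host snoRNA genes in the annotation, but no such snoRNA row had more than 178 reads over all 49 embryos.

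All 14 factors of large subunit assembly were lower. Rrp8, a methyltransferase of the large subunit rRNA, showed the smallest adjusted p among them and fell from a median of 148 (85.9 to 224) to a median of 20.6 (4.59 to 27.6) normalised counts (-2.93 ± 0.33, adjusted p = 1.46e-09). Nop53, an adaptor that brings the exosome to the pre-60S particle, fell to 14.5% of CONTROL (-2.79 ± 0.33, adjusted p = 3.86e-09). Neither gene had a LOF embryo within the CONTROL range. Pes1, Bop1 and Wdr12 form the PeBoW complex that processes the precursor of 28S and 5.8S rRNA. Wdr12 fell from a median of 72.9 (44.4 to 109) to a median of 10.4 (1.59 to 42.2) (-2.65 ± 0.41, adjusted p = 1.08e-06). Bop1 changed by -1.55 ± 0.33 (adjusted p = 1.50e-04), with 6 of 9 LOF embryos below every CONTROL embryo. Pes1 had a median of 139 (52.8 to 208) in CONTROL and a median of 52.0 (39.0 to 96.6) in LOF embryos, with -1.28 ± 0.30 (adjusted p = 6.84e-04), and relative to other transcripts its change was -0.34 (adjusted p = 0.293 with TMM scaling). The 3 subunits thus ranged from 15.99% to 41.3% of CONTROL, and differences among them were not tested.

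Nip7, which joins late pre-60S particles, fell from a median of 544 (466.1 to 1229.5) to a median of 203 (14.7 to 329.5) (-1.99 ± 0.35, adjusted p = 9.02e-06). Rrp1 and its paralog Rrp1b, both nucleolar, were both lower, with log2 fold changes of -2.11 ± 0.34 (adjusted p = 1.62e-06) and -2.47 ± 0.36 (adjusted p = 2.94e-07). For Rrp1b 1 LOF embryo lay within the CONTROL range, and for Rrp1 none did. Nol8 was the large subunit factor with the largest adjusted p. It had a median of 190.4 (134 to 303) in CONTROL and a median of 82.7 (11.3 to 194) upon LOF (-1.29 ± 0.34, adjusted p = 0.00227), and it did not pass with TMM scaling (-0.60, adjusted p = 0.0907). Nop16, another factor of pre-60S particles, had a median of 409.6 (242 to 1008) in CONTROL and a median of 76.0 (29.3 to 132) in LOF embryos (-2.49 ± 0.32, adjusted p = 2.12e-08). The other large subunit factors were Nol12, Rrp15, Nop2 and Nol9, in order of their change, which ran from -2.0 to -1.23, and in 1 of these 4 no LOF embryo reached the CONTROL range. Nol9 did not pass with TMM scaling (-0.41, adjusted p = 0.199), where 11 of the 14 were lower.

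**Figure D2:**
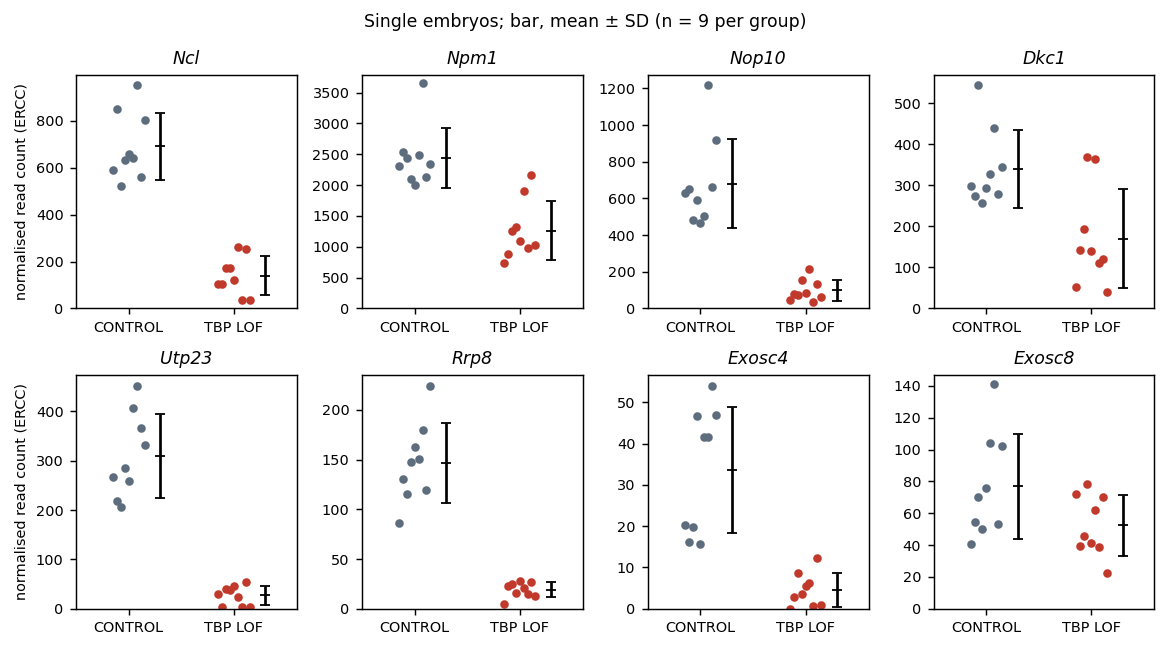
ERCC-normalised read counts (y axis, from 0) of 8 genes in single TBP CONTROL and TBP LOF embryos (points), with mean ± SD (n = 9 per group). Ncl, Nop10, Utp23, Rrp8 and Exosc4 have no LOF embryo within the CONTROL range, while Npm1 and Dkc1 overlap in 1 and 2 LOF embryos and Exosc8 overlaps in most.

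Of the 10 subunits of the RNA exosome, the 3'-to-5' ribonuclease of precursor rRNA, 9 were lower. Exosc4, a subunit of its ring, had a median of 41.5 (15.7 to 53.9) normalised counts in CONTROL embryos and a median of 3.62 (0 to 12.3) upon LOF (-2.88 ± 0.49, adjusted p = 4.92e-06). Exosc5, of the same ring, fell from a median of 170.2 (94.8 to 243) to a median of 27.0 (7.32 to 82.8) (-2.27 ± 0.36, adjusted p = 1.70e-06). Exosc8, another ring subunit, had a median of 70.4 (40.4 to 141) in CONTROL and a median of 45.9 (22.4 to 78.5) in LOF embryos and did not pass the threshold (-0.56 ± 0.32, adjusted p = 0.185). Only 3 LOF embryos lay below every CONTROL embryo for Exosc8, and with TMM scaling its value was positive (0.32, adjusted p = 0.312). The exosome members ranged from -2.88 to -0.56, and the other subunits were Exosc9, Exosc6, Exosc10, Exosc7, Exosc2, Exosc3 and Exosc1, in order of their change, which ran from -1.87 to -1.25, and in 2 of these 7 no LOF embryo reached the CONTROL range. With TMM scaling Exosc3 (-0.62, adjusted p = 0.0634), Exosc1 (-0.43, adjusted p = 0.215) and Exosc6 (-0.78, adjusted p = 0.23) did not pass, and 6 of the 10 subunits were lower. Several of these genes overlap another gene with a similar or larger number of reads, and the use of strand in counting was not stated, so their reads may not be fully separable. In the pairs below, reads of the exosome gene are over the 47 embryos and those of the other gene over all 49. Exosc6 shares its strand with Aars (1279 and 6371 reads). On opposite strands lie Exosc9 and Ccna2 (1525 and 45587 reads), Exosc8 and Supt20 (4184 and 5765 reads) and Exosc4 and Oplah (1345 and 1368 reads). Of the exosome genes outside the name rule, Dis3, a catalytic subunit, fell by 3.35 on the log2 scale (adjusted p = 5.52e-09), while the cofactors C1d (-0.67 ± 0.32, adjusted p = 0.108) and Mphosph6 (0.35 ± 0.30, adjusted p = 0.432) did not pass.

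Nucleolin (Ncl, ENSMUSG00000026234.12, chr1:86344719-86359400 on the reverse strand of GRCm38) and nucleophosmin (Npm1, ENSMUSG00000057113.13, chr11:33152287-33163206 on the reverse strand of GRCm38) are the abundant structural proteins of the nucleolus. Ncl fell to 20.3% of CONTROL, from a median of 642 (524 to 952) to a median of 122 (36.7 to 262) normalised counts, without overlap (-2.30 ± 0.33, adjusted p = 1.64e-07). Npm1 had a median of 2347 (2002 to 3647) in CONTROL and a median of 1086 (744 to 2169) in LOF embryos, with 1 LOF embryo inside the CONTROL range. Its change of -0.95 ± 0.29 (adjusted p = 0.00774) was the smallest in size of the 53 that passed, and with TMM scaling it was close to 0 (-0.05, adjusted p = 0.886). Npm1 held 13.98% to 20.3% of the members' reads in TBP CONTROL embryos (median 17.3%) and 20.8% to 44.7% upon TBP LOF (median 27.0%), with no overlap between these groups. In the FOXJ3 experiment it held 11.2% to 27.5% in CONTROL and 7.66% to 20.3% in LOF embryos. FOXJ3 CONTROL embryos 2 and 3 of batch 1, at 21.8% and 27.5%, lay within the TBP LOF range. Differences in these shares were not tested.

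**Figure D3:**
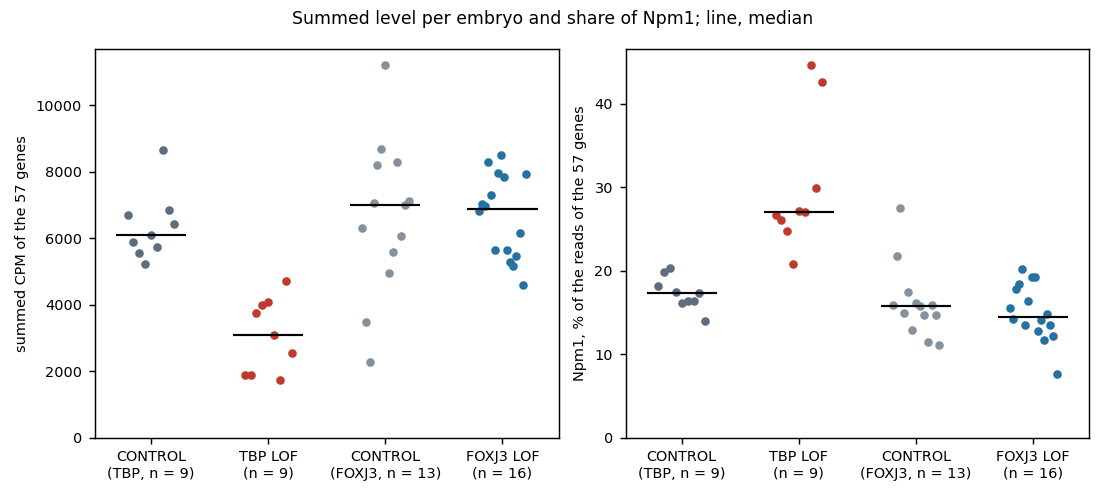
Left, summed CPM of the 57 genes per embryo (y axis, from 0), and right, the share of these reads on Npm1 in percent, in the 4 groups (points, single embryos; lines, medians). TBP LOF embryos lie between 1731 and 4702 CPM, below the lowest TBP CONTROL embryo (5226 CPM). Within the TBP LOF range also lie 2 FOXJ3 CONTROL embryos (2268 and 3471 CPM) and FOXJ3 LOF embryo 7 of batch 2 (4607 CPM). FOXJ3 CONTROL embryo 1 (4963 CPM) and FOXJ3 LOF embryo 3 (5162 CPM) of batch 2 lie below the lowest TBP CONTROL embryo too.

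The embryos differed in how far the genes were reduced. Summed over the 57 genes, ERCC-normalised counts were 12006 to 22230.3 in CONTROL embryos (median 12701) and 2178 to 7244 in TBP LOF embryos (median 4003). LOF embryos 9, 11 and 1 were the lowest (2178, 2407 and 2788) and embryos 10 and 8 the highest (7244 and 7039). In embryos 9 and 11 the share of Npm1 was 44.7% and 42.7%. CONTROL embryo 8, at 22230.3, stood above the others, the next being embryo 10 at 16786. Without it, 53 members were again lower and the median log2 fold change was -1.67. The share of all features lower without this embryo is not given, and in the main fit it was 29.7%.

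Among the name-matched genes without an assembly role, Nol3, an apoptosis repressor, had 0 to 9.99 normalised counts in TBP CONTROL and 0 to 5.81 in TBP LOF embryos, a level too low for a statement (-0.74 ± 1.06, adjusted p = 0.663). Nol4 failed the filter on low counts and was not tested. Nol4l was detected in every embryo, with a median of 49.9 (36.6 to 73.9) in CONTROL and a median of 31.5 (24.1 to 81.5) in LOF embryos (-0.15 ± 0.33, adjusted p = 0.782). Scaled by TMM, Nol4l rose by 0.68 (adjusted p = 0.035). None of the 3 was among the 53 lower members.

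Genes of the pathway outside the name rule were read from fixed lists. RNA polymerase I, its initiation factors and its terminator were represented by 12 genes, and all 12 were lower upon TBP LOF (median -1.82), against 10 with TMM scaling (median -1.07). The largest change was that of Taf1c (-3.46 ± 0.62, adjusted p = 1.16e-05), a subunit of the SL1 complex that recruits polymerase I with TBP, and the smallest that of Rrn3 (-1.30 ± 0.33, adjusted p = 0.0016), its initiation factor. The second largest subunit of the polymerase, Polr1b, changed by -2.75 ± 0.38 (adjusted p = 9.99e-08). Of 82 other rRNA processing and assembly factors, 80 were lower and 0 higher (median -2.07), and 66 were lower and 1 higher with TMM scaling. Examples were Sdad1 (-3.02 ± 0.34, adjusted p = 1.02e-09), needed for export of the large subunit, and the nucleolar helicase Ddx21 (-2.93 ± 0.37, adjusted p = 1.33e-08). Mphosph6 was the one that was higher with TMM scaling (1.30).

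Cytosolic ribosomal protein genes, the products that these factors assemble, had 71 of 74 lower and 0 higher (median -1.82), and with TMM scaling 53 lower and 0 higher (median -0.94). Among 78 mitochondrial ribosomal protein genes, which work outside the nucleolus, 51 were lower and 0 higher (median -1.39), and with TMM scaling 26 were lower and 3 higher (median -0.49). No difference between these lists was tested.

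**Figure D4:**
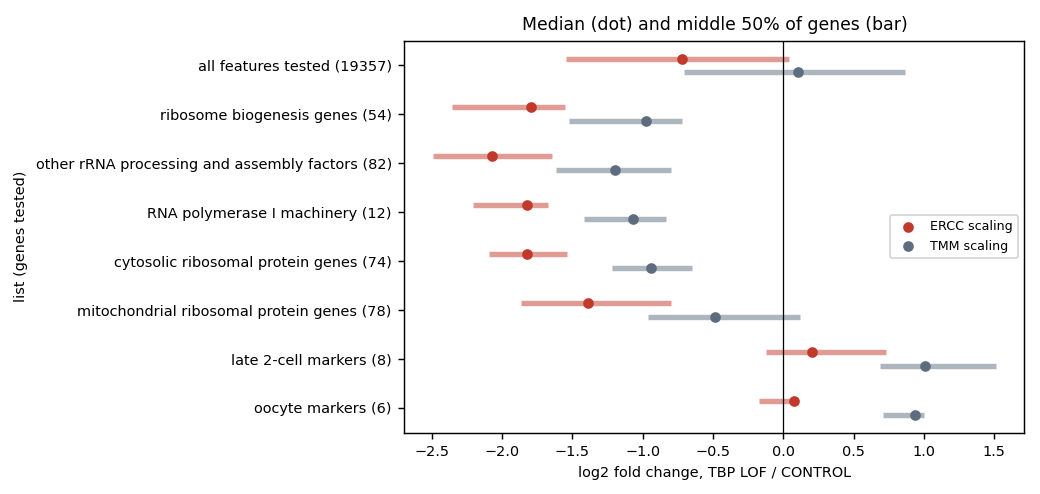
Log2 fold change between TBP LOF and CONTROL embryos (x axis) for all features and for lists of genes (y axis, number tested in brackets), as median (dot) and middle 50% of genes (bar), with ERCC and TMM scaling. The 54 ribosome biogenesis genes have medians of -1.79 and -0.98, the marker genes of late 2-cell embryos and oocytes medians above 0 with both.

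Markers of cell types and stages were read beside these counts. Of 8 late 2-cell markers, 0 were lower and 2 higher, Usp17lc and Gm8300 (ERCC scaling). Their summed normalised counts were 214 to 700.3 in CONTROL and 269 to 1134 in TBP LOF embryos. Of 6 oocyte markers only Zp3 was lower and 0 were higher, and the sums were 1759 to 5641 in CONTROL and 1863 to 6044 in LOF embryos. The ranges of both marker sums overlapped between the groups. With TMM scaling, 4 of the 8 late 2-cell markers were higher and 0 lower (median 1.01), and 4 of the 6 oocyte markers were higher and 1 lower (median 0.94). As CPM the late 2-cell sums were 110.2 to 324 in CONTROL and 285 to 496 in LOF embryos, and the oocyte sums 813 to 2379 and 1896 to 3441. Of 8 cumulus and granulosa markers, Fshr and Inhba were at 0 in all 47 embryos, and the 8 summed to at most 24.9 CPM in any embryo of the TBP experiment. Of the 2 that were tested, Tnfaip6 was lower upon TBP LOF with ERCC scaling and Foxl2 did not pass, while with TMM scaling 0 were lower and 1, Foxl2, was higher (2.77). Both calls rest on few reads. Foxl2 was at 0 in 39 of the 47 embryos and reached at most 2.93 normalised counts in TBP LOF embryos. Tnfaip6 had a median of 5.37 (0 to 45.5) in TBP CONTROL embryos. The ERCC share of reads was 2.67% to 6.12% in TBP LOF and 2.22% to 3.25% in CONTROL embryos, and mitochondrial reads were 4.69% to 9.85% and 3.00% to 8.51%. The part of these measures in the result was not tested. Tbp mRNA itself was lower (6.59 to 151 normalised counts in LOF, 195.5 to 672 in CONTROL embryos, adjusted p = 5.28e-06 by edgeR).

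The second comparison asked the same of FOXJ3, with TMM scaling and library batch in the model. None of the 56 tested members passed the threshold in edgeR or in DESeq2 with batch, and 0 had an unadjusted p under 0.05 by edgeR, while 0.0102% of all 19518 features passed and 5.82% had such an unadjusted p. The median log2 fold change over the members was 0.09, and over all features -0.04. Nop16 had the smallest p, with 76.5 to 540.1 normalised counts in CONTROL embryos (median 377) and 292 to 635 in FOXJ3 LOF embryos (median 458), and the ranges overlapped. Its log2 fold change was 0.27 ± 0.17 (adjusted p = 0.902). Ncl (0.20 ± 0.15), Rrp36 (-0.27 ± 0.21), Bysl (0.25 ± 0.20) and Rrp1 (0.22 ± 0.19) followed. In the 54 assembly genes the values lay between -0.27 and 0.27.

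Within library batch 1 the members' median was 0.22 and within batch 2 -0.07, with 0 members past the threshold in either. CONTROL embryos 3 and 2 of batch 1 had the lowest summed level of the members (2268 and 3471 CPM) and the highest of the oocyte markers (4574 and 3281 CPM) among FOXJ3 CONTROL embryos. Without both, the median turned to -0.07 and 0 members passed the threshold. On simulated counts with 100 features changed at each size, a log2 change of 1 was recovered for 65% of them in this design. Smaller changes were not simulated. In the data 0.0102% of all features passed, and the Benjamini-Hochberg limit depends on such numbers. The share is therefore not the power of this comparison on the data.

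The third comparison tested whether the TBP effect differed from the FOXJ3 effect, in 1 fit of all 47 embryos with TMM scaling. Of the 56 members, 39 had a lower log2 fold change upon TBP LOF than upon FOXJ3 LOF, each against its own CONTROL, and 0 the other way. Of all features, 12% had a lower and 9.34% a higher one. The 5 members with the smallest adjusted p were Rrp8 (-2.17, adjusted p = 1.25e-06), Nop10 (-2.12, adjusted p = 1.88e-06), Nop53 (-2.05, adjusted p = 3.10e-06), Ncl (-1.81, adjusted p = 4.89e-06) and Utp23 (-2.66, adjusted p = 3.33e-05). Those that did not pass included Npm1 (-0.16, adjusted p = 0.69), Dkc1 (-0.44, adjusted p = 0.364), Pes1 (-0.37, adjusted p = 0.296) and Exosc8 (0.34, adjusted p = 0.332). By role, all 3 genes of UtpA and both of UtpB passed, 14 of 18 other processome factors, 3 of 5 snoRNP proteins, 10 of 14 large subunit factors, 6 of 10 exosome subunits and 1 of the 2 major nucleolar proteins. The experiments differ in batch and antibody host, and with the FOXJ3 embryos of batch 2 alone the count was 18, beside 4.38% of all features. Without the 2 FOXJ3 CONTROL embryos with low levels it was 32, beside 10.1% of all features.

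**Figure D5:**
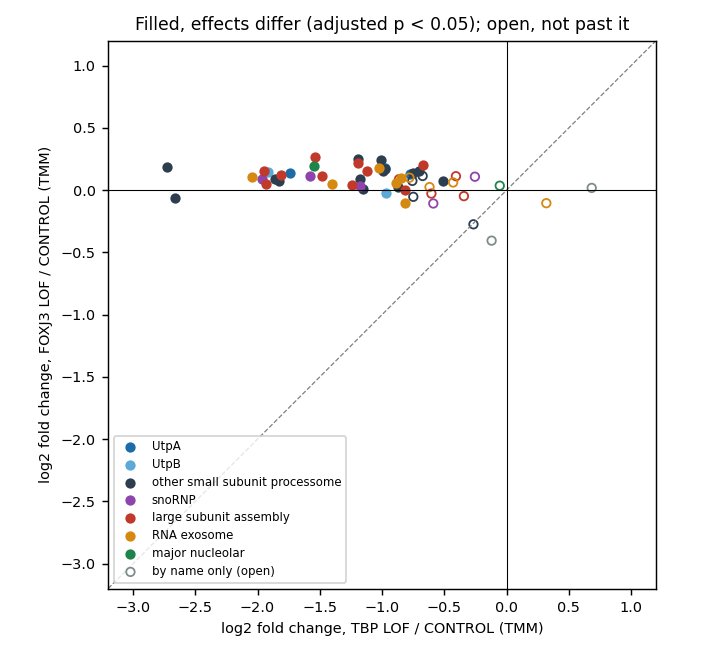
Log2 fold change of each gene upon TBP LOF (x axis) and FOXJ3 LOF (y axis), both TMM-scaled, coloured by role. Filled points are the 39 genes whose effects differ (adjusted p under 0.05) and open points the others, and the dashed line marks equal effects. The FOXJ3 values lie between -0.41 and 0.27, while the TBP values of the filled points reach down to -2.73.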

How the data were processed

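Expression was measured in single late 2-cell embryos by Smart-seq+5'. The authors trimmed the reads, kept those of transcript 5' ends, mapped them with STAR 2.7.11a (version from the submitters' processing notes) to GRCm38 with the injected construct added, and counted the second read of each pair with TEcount against gencode M20 and a modified RepeatMasker annotation. The deposited values are estimated counts (expected counts) without normalization. They are whole numbers, so rounding changed nothing. Whether strand was used in counting was not stated. A second set of tables, of single TE insertions, was not used.

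Gene identifiers were matched without version to gencode M21 (54809 of 54838 had a symbol), and 42 TE subfamily rows were added to their 6 families. Embryos under 500000 reads or 1000 genes, or over 10% mitochondrial or 15% ERCC reads, were dropped, which left 9 LOF and 9 CONTROL embryos for TBP and 16 and 13 for FOXJ3. A feature was tested when 25% or more of a fit's embryos had 1 read of it. Tests were two-sided, by the quasi-likelihood method in edgeR 4.0.16, with Benjamini-Hochberg adjustment. TBP embryos were scaled by the median of ratios over 42 ERCC transcripts, FOXJ3 embryos and the joint fit by TMM. The authors used DESeq2. DESeq2 1.42.0 was run as an alternative. Standard errors were derived from the F statistic. The labels do not say which TBP embryos were collected together, so that no term for it was fitted and p-values measure the spread between embryos. Counts are of reads, so amplified copies of a molecule are counted too.

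On simulated counts with 100 features changed at each size, a log2 change of 2 was recovered for 83% (TBP, 19357 features), 97% (FOXJ3, 19518) and 77% (joint fit, 19658), and a change of 1 for 17%, 65% and 10%. The changed features were drawn from those with a mean of 10 or more normalised counts. In the data many more features passed in the TBP fit (5758 lower) and the joint fit (2355 lower), and far fewer in the FOXJ3 fit (2). The Benjamini-Hochberg limit depends on how many features change. The shares therefore describe the simulated setting and not the power of any of these fits on the data.

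The members, the lists and the tests were chosen with earlier results of these data known. Genes named are those the selection lists by full symbol, the 2 smallest and the largest adjusted p per role in the TBP fit, the 5 smallest p in the FOXJ3 and joint fits, 2 paralog pairs, the 3 genes without an assembly role and members that failed the filter. Others named as examples were chosen after their values were seen. R 4.3.3, Python 3.11.15, pandas 2.3.3 and matplotlib 3.10.9 were used.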

Additional observations from a re-analysis of the deposited data

Results flagged for a closer look

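Single embryos stood far from the rest of their group for some of the named genes, measured as the gap to the nearest embryo divided by the range of the 9 embryos. Of 66 groups of values examined, 8 exceeded the 95% limit, and chance alone exceeds it in about 1 of 20 independent groups. The groups examined come from the same embryos and are not independent, so their count cannot be set against that rate. In 6 of them it was CONTROL embryo 8 of the TBP experiment that was highest, for Nip7 (gap ratio 0.508, 1229.5 against 842 normalised counts), Nop16 (0.587, 1008 against 559), Npm1 (0.679, 3647 against 2530.5), Rrp1 (0.556, 194 against 118), Utp18 (0.661, 168 against 81.3) and Utp6 (0.572, 163 against 109). This embryo had 3550549 counted reads, and 2.36% of its reads were ERCC. TBP LOF embryo 6 was highest for Utp14a (0.513, 89.3 against 44.1) and Wdr12 (0.656, 42.2 against 15.6).

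The TBP and FOXJ3 effects differed in the joint fit (edgeR) for 39 members, all of them with the lower log2 fold change upon TBP LOF. For the 5 named members the difference in log2 fold change was -2.17 (Rrp8), -2.12 (Nop10), -2.05 (Nop53), -1.81 (Ncl) and -2.66 (Utp23).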

How the results depend on the processing

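Over the alternatives, between 41 and 53 members passed the threshold upon TBP LOF (41 with TMM or DESeq2 size factors, 40 of them lower beside 12.7% and 12.6% of all features, and 44 with library size only, all lower, beside 16.5%), and with any single embryo left out 53 did (lowest 53, highest 53). For the fits with an embryo left out the share of all features is not given, and in the main fit 29.7% were lower. With TMM scaling 13 of the 53 did not pass: Npm1, Dkc1, Pes1, Rrp36, Nol8, Utp14a, Utp11, Rrp9, Rrp12, Nol9, Exosc1, Exosc3 and Exosc6. Positive log2 fold changes were found for Exosc8 (0.32 with TMM, 0.35 with DESeq2 size factors, 0.09 with library size only), Nol4l (0.68, 0.71 and 0.43) and, without TBP CONTROL replicate 5, Nol3 (0.29, and from -1.53 to 0.29 with any single embryo left out). In the FOXJ3 comparison 0 members passed under any alternative. The number of members with a negative value was 10 of 56, 42 of 56 without CONTROL embryos 2 and 3 of batch 1, 34 of 55 in batch 2 alone and 1 of 56 with ERCC size factors. Of the 5 named members the sign turned for Rrp36 with ERCC size factors (0.028) and for Bysl (-0.049) and Ncl (-0.067) in batch 2 alone. The difference of effects passed for 18 members with the FOXJ3 embryos of batch 2 alone, which leaves fewer embryos (4.38% of all features lower). Under the other alternatives it passed for 31 (batch 1 alone, 9.72% of all features) to 53 (ERCC size factors, 28.0%). Leaving out FOXJ3 CONTROL embryos 2 and 3 of batch 1 was chosen after seeing the data. With the embryo number as a replicate block, 53 TBP members and 0 FOXJ3 members passed, and the shares of all features in these fits are not given. Deviations of same-numbered embryos correlated above 0.1 in 1 of 7 pairs (TBP) and 3 of 12 (FOXJ3). The 3 FOXJ3 pairs were numbers 5, 6 and 7 of batch 2 (0.268, 0.195 and 0.15). This check looks only at embryos of equal number, so it cannot show which embryos were collected together. In low genes such as Nol3 and Nol4 depth limits any statement.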
